A study of Homo sapiens with 8 samples.

Results

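Cells copy their DNA once per division. In G1, the origin recognition complex, CDC6 and CDT1 load the MCM helicase onto origins (licensing). At the G1/S border, cyclin E and cyclin A with their kinase, and the E2F transcription factors that are freed from the RB protein, drive the switch into S phase: CDC45 and the GINS complex join MCM, and the polymerases, the PCNA clamp, RPA and the nucleotide-making enzymes then carry the synthesis. Messages of many of these genes are known to rise in cells that enter S phase.

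The genes described here are 51 DNA replication and G1/S genes, chosen by name, all of which were among the 23686 gene symbols of the series and among the 14249 that were tested. By function, 12 act in licensing, 6 in helicase activation, 6 as clamp or clamp loader, 8 as DNA polymerase or primase subunits, 4 in single-strand binding and Okazaki fragment processing, 4 in nucleotide supply, 6 as cyclins or E2F factors and 5 in chromatin copying. The libraries were 2 of siGpx1 HS578T cells, 2 of control HS578T cells, 2 of siGpx1 MDA-MB-231 cells and 2 of control MDA-MB-231 cells. Both lines are human triple-negative breast cancer lines, and siGpx1 in the sample titles denotes depletion of GPX1, a peroxidase that uses glutathione to remove hydrogen peroxide. The genotype label calls the same samples Gpx1-/-, and the source label counts upward within a line (HS580T for a library of HS578T cells, for example), so the titles and the cell line label were used. Neither the kind of control, the siRNA sequence nor whether replicates were separate cultures is stated, so the spread behind the p-values is that between libraries and may be a technical one.

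Library totals ran from 12905808 to 14216365 estimated counts. The siGpx1 HS578T libraries differed most from each other, with a mean chi-square of 4.05 per gene, against 1.35 to 1.96 in the other groups. Their 51 genes summed to 3880 and 4311 CPM (normalised counts scaled to a common library size), against 4310 and 4424 in control HS578T, and to 5217 and 5287 in siGpx1 MDA-MB-231, against 5398 and 5396 in control MDA-MB-231. HS578T libraries, labelled epithelial, held 0 to 0.22 TPM (abundance per transcript length) of EPCAM and 0 to 0.12 TPM of CDH1, the main epithelial adhesion genes. MDA-MB-231 held 31.8 to 39.5 TPM of EPCAM, and its CDH1 level is not reported here. Of 8 epithelial markers, 4 averaged over 1 TPM in each HS578T group and 5 in each MDA-MB-231 group. Of 8 leukocyte markers, 4 averaged over 1 TPM in siGpx1 MDA-MB-231 and 3 in each other group. CD3E was at 0 and PTPRC reached at most 0.19 TPM. The summed level of the 8, most of it CD68, was 73.3 and 78.0 TPM in siGpx1 HS578T, against 109 and 107 TPM in control HS578T. For MDA-MB-231 the sum was 179 and 184 TPM in siGpx1 libraries, against 182 and 174 TPM in control libraries. Of 7 endothelial markers, CDH5 reached at most 0.04 TPM and VWF at most 0.06 TPM, and their summed level, most of it ENG in HS578T, was 127 and 120 TPM in siGpx1 HS578T, against 128 and 126 TPM in control HS578T, and 3.46 to 3.56 TPM in MDA-MB-231. Of the 3 tested in each list, CD68 and CSF1R fell in HS578T, CSF1R fell and CD14 rose in MDA-MB-231, PECAM1 rose in HS578T and fell in MDA-MB-231, and KDR rose in both lines. The part of these markers in the results was not tested. The targeted gene, GPX1, held 42 and 42 counts in siGpx1 HS578T, against 1117 and 1074 in control HS578T, and 108 and 95 counts in siGpx1 MDA-MB-231, against 2944 and 3223 in control MDA-MB-231. The log2 fold changes were -4.59 ± 0.10 and -4.84 ± 0.07 (SE, 2 libraries per group; adjusted p = 1.46e-14 and 9.08e-16, edgeR quasi-likelihood test with Benjamini-Hochberg adjustment over all genes tested).

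After GPX1 depletion the replication genes did not move as a block: a few fell more than 2-fold, RPA1 rose more than 2-fold, and the rest changed by less. In HS578T, 26 of the 51 fell, 9 rose and 16 did not pass (adjusted p under 0.05), against 22.1% of all genes tested that fell and 28.6% that rose. The median log2 change was -0.17 over the 51 genes (-0.10 without siGpx1 replicate 1 of that line and -0.26 without its siGpx1 replicate 2) and 0.04 over all genes. Fewer of the 51 fell without either control replicate or siGpx1 replicate 1 of HS578T, and more without its siGpx1 replicate 2. More of the 51 rose without siGpx1 replicate 1 of HS578T, and fewer without any other library of that line. Over all genes, fewer fell and fewer rose without any one library of that line. In MDA-MB-231, 22 of the 51 fell, 10 rose and 19 did not pass, against backgrounds of 21.9% and 20.7%, with medians of -0.06 over the 51 genes and 0 over all genes. Without any one library of that line, fewer of the 51 fell, and fewer of all genes tested fell too. The median over the 51 was nearer 0 (-0.02 to -0.01) without siGpx1 replicate 1 or either control replicate of that line. The same held with DESeq2 size factors and with a stricter filter on low counts. In these settings the median over all genes also rose, from 0 to between 0.03 and 0.05. MCM5, CCNE1, GINS3, SLBP and LIG1 fell more than 2-fold in HS578T, and CCNE1, E2F2 and SLBP in MDA-MB-231. A change in the share of cells in S phase and a change in the RNA of each cell cannot be told apart in these bulk samples. Of the 51, 19 fell in both lines and 6 rose in both, against 14.3% and 14.9% of all genes tested. Without any one library other than siGpx1 replicate 2 of HS578T, fewer of the 51 and fewer of all genes fell in both. Each line has its own controls. CCNA2 was called in opposite directions, and 10 passed in neither line.

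**Figure D1:**
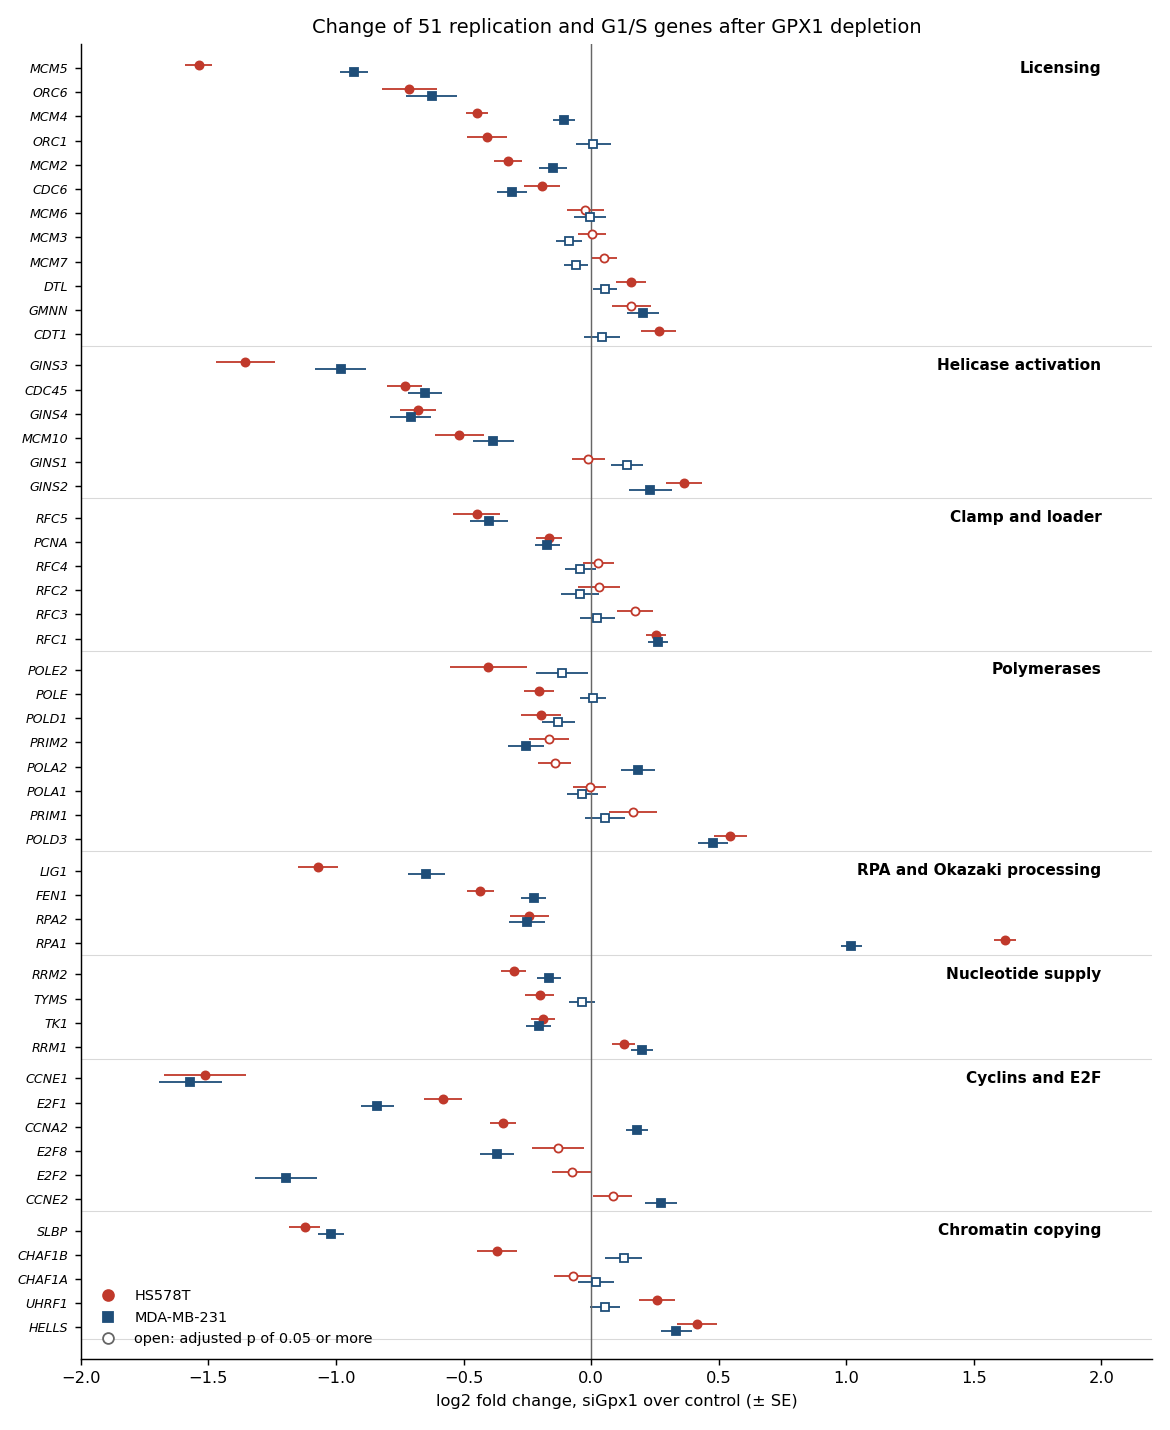
Log2 fold change, siGpx1 over control, with its standard error, of each of the 51 genes, by function, in HS578T (circles) and MDA-MB-231 (squares); filled symbols passed an adjusted p of 0.05. RPA1 lies at 1.62 and 1.02, far right of the other genes, and MCM5, CCNE1, GINS3, SLBP and LIG1 lie furthest left in HS578T.

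Promoters of S-phase genes are known for letters of the E2F consensus. RefSeq promoters of GRCh38.p14, from 250 bases before to 50 after the annotated start, were at hand for 44 of the 51 genes and were read for TTTCCCGC, TTTGGCGC, TTTCGCGC and TTTGCCGC on both strands; TTTCGCGC and TTTGGCGC can overlap their own reverse complements. Of the 44 genes, 23 (52.3%) held at least one of them, against 6.44% of the tested genes with a promoter and 3.99% of all genes with a promoter. The following are 30-base stretches of 5 genes, the first 3 of which fell in both lines and the last 2 of which rose in both, 5′ to 3′ on the strand of the gene, with the motif in capitals.
GINS3: cgtccccgggcGCGGGAAAcgagtttcaat
LIG1: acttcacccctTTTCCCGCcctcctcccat
E2F1: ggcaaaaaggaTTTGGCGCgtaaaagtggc
GINS2: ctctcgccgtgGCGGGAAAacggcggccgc
HELLS: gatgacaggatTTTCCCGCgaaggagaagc
The promoter windows are chr16:58392221-58392520 on the plus strand for GINS3, chr19:48170295-48170594 on the minus strand for LIG1, chr20:33686336-33686635 on the minus strand for E2F1, chr16:85688905-85689204 on the minus strand for GINS2 and chr10:94545538-94545837 on the plus strand for HELLS. Genes that fell and genes that rose both carried these letters, and a match describes the sequence only. Of the 23 genes with a motif, HS578T had 9 that fell and 5 that rose (median log2 change -0.02), and MDA-MB-231 had 7 and 4 (median -0.04). Of the 21 without one, HS578T had 13 that fell and 3 that rose (median -0.30), and MDA-MB-231 had 10 and 4 (median -0.13). The CCAAT letters stood in 61.4% of the 44 genes, against 43.3% of tested genes, and TTTGAA, found in promoters of mitotic genes, in 2.27%, against 13.9%.

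The 3′ UTRs were read for GGGCATC and GGCATCA, letters known from earlier results of these data to go with lower expression, which overlap in the 8 letters GGGCATCA. These 8 letters also occur in GPX1 transcripts on chromosome 3, upstream of the 3′ UTR, shown here from GENCODE 29 with the match in capitals.
GPX1: gcaaccagtttGGGCATCAggagaacgcca
An siRNA guide can pair through its seed with 3′ UTRs of other messages; whether the guide used here carries these letters is not stated. Of the 51 genes, CCNE1, E2F2, GINS3, GINS4 and SLBP held a match. The sites of 4 of them, on chromosomes 19, 1, 16 and 4, are printed with the match in capitals.
CCNE1: ttctgtggatGGCATCAaacagggcaa
E2F2: atgtggcactGGCATCAttctctgctt
GINS3: actgtttgcaGGGCATCActgcttcccc
SLBP: tacttttataGGCATCAaagtattctc
All 5 matched genes fell in MDA-MB-231 and 4 of them, all but E2F2, in HS578T, with median log2 changes of -1.02 and -1.12. The 46 genes without a match included 22 that fell and 9 that rose in HS578T (median -0.15) and 17 that fell and 10 that rose in MDA-MB-231 (median -0.04). Over 13100 tested genes with a 3′ UTR, 14.4% were matched, and 43.5% of those fell in HS578T and 44.0% in MDA-MB-231, against 19.5% and 19.1% of the unmatched. Since the letters were chosen on these same data, these counts and shares describe that choice and are no independent evidence. The part of these letters in the falls was not tested. MCM5 and LIG1, which also fell, held no match.

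In licensing, 6 of 12 genes fell in HS578T and 2 rose (50% and 16.7%), against 22.1% and 28.6% of all genes tested. In MDA-MB-231, 5 fell and 1 rose (41.7% and 8.33%), against 21.9% and 20.7%. The same backgrounds hold for the function groups below, each of which has few genes. The largest fall was that of MCM5, a subunit of the ring-shaped helicase that has 6 different MCM subunits. MCM5 held 633 and 677 counts in siGpx1 HS578T, against 2058 and 2062 in control HS578T. In MDA-MB-231 it held 593 and 527 counts in siGpx1 libraries, against 1113 and 1152 in control libraries. The groups were far apart in both lines, and MCM5 fell 2.90-fold in HS578T (log2 -1.54 ± 0.05, adjusted p = 2.27e-12) and 1.91-fold in MDA-MB-231 (log2 -0.93 ± 0.06, adjusted p = 2.44e-09). The other 5 subunits moved far less. MCM4 held 2204 and 2513 counts in siGpx1 HS578T, against 3501 and 3456 in control HS578T, a log2 change of -0.45 ± 0.04 (adjusted p = 2.86e-07). In MDA-MB-231 it held 3079 and 2895, against 3360 and 3467, which just passed (log2 -0.11, adjusted p = 0.0499) and no longer did (log2 -0.10 to -0.04, adjusted p 0.0836 to 0.586) when any MDA-MB-231 library or either control HS578T library was left out. MCM2 fell by 0.33 in HS578T and by 0.15 in MDA-MB-231 on the log2 scale, and the MDA-MB-231 call was lost without each of the same 6 libraries (log2 -0.14 to -0.08, adjusted p 0.0576 to 0.442). MCM3, MCM6 and MCM7 passed in neither line, with log2 changes between -0.09 and 0.05.

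By TPM, a level per transcript length, MCM5 was 49.3 and 44.6% of the mean of the other 5 subunits in siGpx1 HS578T, against 124 and 124% in control HS578T. It was 23.8 and 21.9% in siGpx1 MDA-MB-231, against 41.2 and 41.2% in control MDA-MB-231. By mean TPM, MCM5 stood 5th of the 6 subunits in siGpx1 HS578T and 2nd in control HS578T, and was the lowest in every MDA-MB-231 library.

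**Figure D2:**
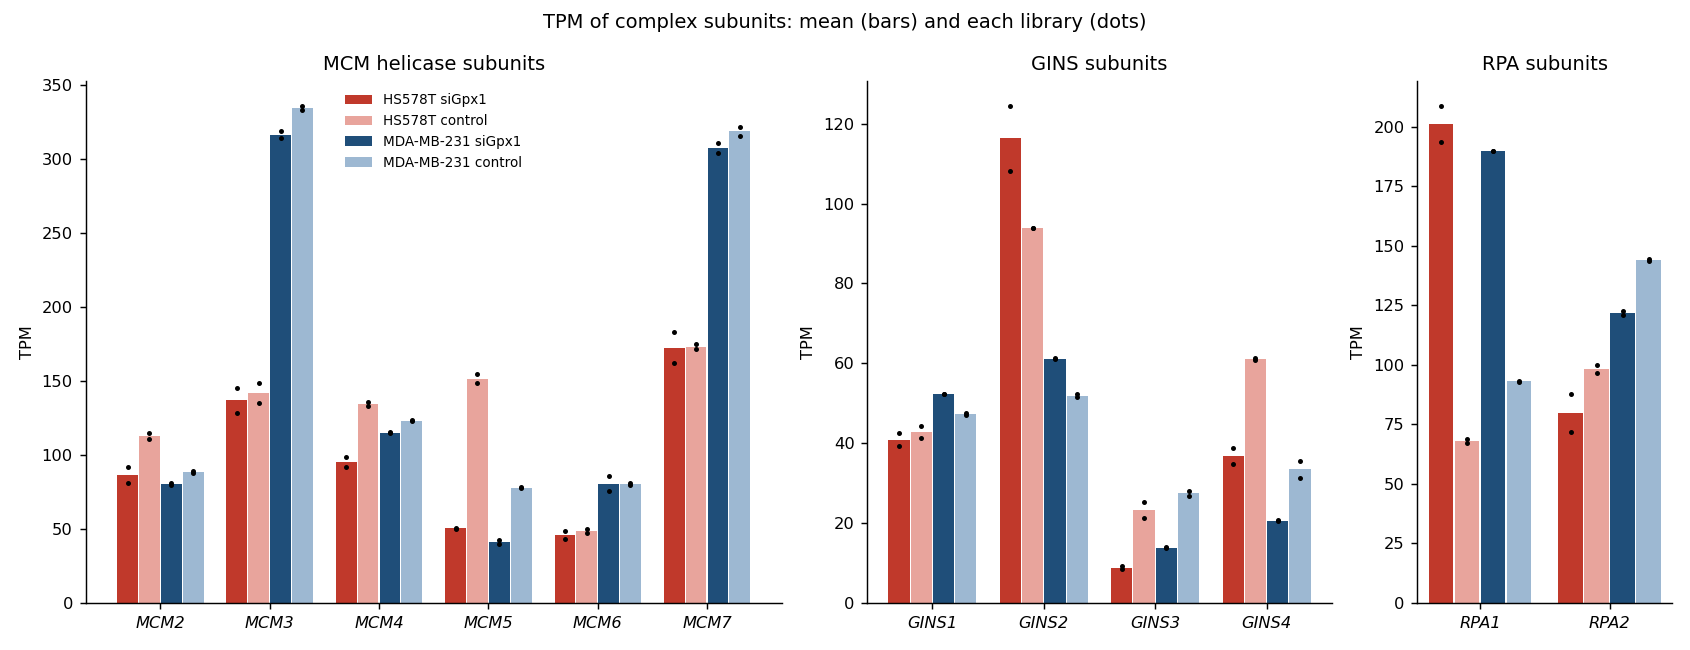
TPM of the MCM, GINS and RPA subunits, as the mean of 2 libraries (bars) with each library as a dot, in siGpx1 and control cells of each line. MCM5 averaged 50.3 TPM in siGpx1 HS578T and 152 TPM in control HS578T, and RPA1 averaged 201 TPM in siGpx1 HS578T and 67.9 TPM in control HS578T.

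Among the loaders, ORC6, a subunit of the origin recognition complex, fell in both lines. It held 138 and 189 counts in siGpx1 HS578T, against 297 and 283 in control HS578T, and 224 and 203 in siGpx1 MDA-MB-231, against 344 and 355 in control MDA-MB-231. These are falls of 0.71 ± 0.11 and 0.62 ± 0.10 on the log2 scale (adjusted p = 4.28e-05 and 9.67e-05). CDC6, which brings MCM to origins, held 663 and 796 counts in siGpx1 HS578T, against 880 and 923 in control HS578T, and 1591 and 1514 in siGpx1 MDA-MB-231, against 2104 and 1983 in control MDA-MB-231. Its groups did not overlap in either line, but the fall in HS578T (log2 -0.19, adjusted p = 0.0312) was lost without control replicate 2 (log2 -0.14, adjusted p = 0.216) or siGpx1 replicate 1 (log2 -0.10, adjusted p = 0.238), and was -0.30 without siGpx1 replicate 2. In MDA-MB-231 (log2 -0.31 ± 0.06, adjusted p = 4.52e-04) it was lost without control replicate 1 (log2 -0.21, adjusted p = 0.058). ORC1, the largest subunit of the origin complex, fell in HS578T (log2 -0.41 ± 0.08) and had a log2 change of 0.01 in MDA-MB-231. CDT1, the partner of CDC6, rose in HS578T (log2 0.27, adjusted p = 0.00407; 0.0785 with DESeq2), and its inhibitor geminin, GMNN, rose in MDA-MB-231 (log2 0.20). The GMNN call was lost without control replicate 1 or siGpx1 replicate 2 of that line (log2 0.19 and 0.22, adjusted p 0.0869 and 0.0687), and the change was 0.31 without its control replicate 2. DTL, the substrate receptor of a ubiquitin ligase that removes CDT1 in S phase, rose by 0.16 on the log2 scale in HS578T, a call that was kept when siGpx1 replicate 1 of HS578T was left out and lost without any of the other 7 libraries (log2 0.10 to 0.18, adjusted p 0.0766 to 0.257).

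In helicase activation, 4 of 6 genes fell and 1 rose in each line (66.7% and 16.7%). GINS3, a subunit of the 4-part GINS ring that bridges MCM and CDC45, held 101 and 96 counts in siGpx1 HS578T, against 254 and 292 in control HS578T. It held 169 and 162 counts in siGpx1 MDA-MB-231, against 352 and 342 in control MDA-MB-231. These are falls of 2.56-fold (log2 -1.36 ± 0.12, adjusted p = 9.04e-08) and 1.97-fold (log2 -0.98 ± 0.10, adjusted p = 1.09e-06). GINS4 held 667 and 788 counts in siGpx1 HS578T, against 1288 and 1232 in control HS578T, and 436 and 416 in siGpx1 MDA-MB-231, against 680 and 797 in control MDA-MB-231. Its falls were 0.68 ± 0.07 and 0.71 ± 0.08 on the log2 scale. GINS2 went the other way, with log2 changes of 0.37 ± 0.07 in HS578T (adjusted p = 4.41e-04; 0.24 without siGpx1 replicate 2) and 0.23 ± 0.08 in MDA-MB-231 (adjusted p = 0.0364). The second of these was lost without control replicate 2 of HS578T or without control replicate 1 or either siGpx1 replicate of MDA-MB-231 (log2 0.24 to 0.29, adjusted p 0.0506 to 0.071). GINS1 passed in neither line (log2 -0.01 and 0.14). The TPM of GINS2 over that of GINS3 was 11.8 and 14.9 in siGpx1 HS578T, against 4.40 and 3.71 in control HS578T, and 4.45 and 4.42 in siGpx1 MDA-MB-231, against 1.84 and 1.95 in control MDA-MB-231. CDC45, the third part of the active helicase, held 320 and 372 counts in siGpx1 HS578T, against 627 and 617 in control HS578T. In MDA-MB-231 it held 416 and 384 counts in siGpx1 libraries, against 662 and 670 in control libraries. CDC45 fell 1.66-fold and 1.57-fold (adjusted p = 2.71e-07 and 1.09e-06). MCM10, which helps to start the helicase, fell by 0.52 ± 0.10 (0.34 without siGpx1 replicate 1) in HS578T and by 0.38 ± 0.08 in MDA-MB-231 on the log2 scale.

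Among the clamp and its loader, 2 of 6 genes fell and 1 rose in each line (33.3% and 16.7%), all by less than 1.4-fold. RFC1, the large subunit of the clamp loader, held 1911 and 1997 counts in siGpx1 HS578T, against 1819 and 1730 in control HS578T, and 2014 and 1908 in siGpx1 MDA-MB-231, against 1765 and 1710 in control MDA-MB-231. It rose by 0.25 ± 0.04 and 0.26 ± 0.04 on the log2 scale (adjusted p = 5.91e-05 and 6.49e-05). RFC5, a small subunit, held 250 and 329 counts in siGpx1 HS578T, against 432 and 423 in control HS578T, and 727 and 641 in siGpx1 MDA-MB-231, against 942 and 974 in control MDA-MB-231. Its falls were 0.45 ± 0.09 and 0.40 ± 0.07 on the log2 scale. RFC2, RFC3 and RFC4 passed in neither line. PCNA, the sliding clamp that tethers the polymerases, had the highest TPM of the 51 genes in every group, with 350 and 407 TPM in siGpx1 and control HS578T and 395 and 443 TPM in siGpx1 and control MDA-MB-231. It held 2113 and 2527 counts in siGpx1 HS578T, against 2854 and 2773 in control HS578T, and 2790 and 2673 in siGpx1 MDA-MB-231, against 3260 and 3270 in control MDA-MB-231. The log2 changes were -0.16 ± 0.05 and -0.17 ± 0.05. The HS578T call was lost without control replicate 2 (log2 -0.17, adjusted p = 0.0588) or siGpx1 replicate 1 (log2 -0.08, adjusted p = 0.105) and was -0.27 without siGpx1 replicate 2, and the MDA-MB-231 call without any library of that line (log2 -0.13 to -0.11, adjusted p 0.141 to 0.231).

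Of the 8 polymerase and primase subunits, HS578T had 3 that fell and 1 that rose (37.5% and 12.5%). MDA-MB-231 had 1 that fell and 2 that rose (12.5% and 25%), against 21.9% and 20.7% of all genes tested. POLD3, an accessory subunit of polymerase delta, which makes the lagging strand, held 844 and 946 counts in siGpx1 HS578T, against 649 and 679 in control HS578T. It held 1345 and 1198 counts in siGpx1 MDA-MB-231, against 977 and 961 in control MDA-MB-231. POLD3 rose in both lines, by 0.54 ± 0.06 and 0.48 ± 0.06 on the log2 scale (adjusted p = 3.60e-06 and 9.51e-06). The catalytic subunit POLD1 fell by 0.20 in HS578T (adjusted p = 0.0456), which control replicate 2 and each siGpx1 replicate decided, since it failed without any of them (log2 -0.23 to -0.13, adjusted p 0.0527 to 0.271), and had a log2 change of -0.13 ± 0.07 in MDA-MB-231. POLE, the catalytic subunit of the leading-strand polymerase epsilon, held 612 and 683 counts in siGpx1 HS578T, against 793 and 821 in control HS578T (log2 -0.20 ± 0.06, adjusted p = 0.00938; -0.16 and 0.0764 without control replicate 2). In MDA-MB-231 it held 1509 and 1397 counts in siGpx1 libraries, against 1522 and 1545 in control libraries, and did not pass. Its partner POLE2 held 73 and 103 counts in siGpx1 HS578T, against 135 and 117 in control HS578T, and 297 and 300 in siGpx1 MDA-MB-231, against 362 and 324 in control MDA-MB-231. The change was -0.40 ± 0.15 in HS578T (adjusted p = 0.0356), lost without control replicate 1 (log2 -0.33, adjusted p = 0.177) or siGpx1 replicate 1 (log2 -0.22, adjusted p = 0.299), and -0.65 without siGpx1 replicate 2.

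Polymerase alpha and primase lay down the RNA-DNA primers. PRIM2, the large primase subunit, held 364 and 441 counts in siGpx1 HS578T, against 491 and 486 in control HS578T, and did not pass there. It held 633 and 647 counts in siGpx1 MDA-MB-231, against 816 and 806 in control MDA-MB-231, a log2 change of -0.25 ± 0.07 (adjusted p = 0.00782) that was lost without siGpx1 replicate 1 or either control replicate of that line (log2 -0.22 to -0.15, adjusted p 0.0544 to 0.192). POLA2, the second subunit of polymerase alpha, held 700 and 786 counts in siGpx1 HS578T, against 919 and 858 in control HS578T, and 700 and 668 in siGpx1 MDA-MB-231, against 606 and 673 in control MDA-MB-231. Its change of -0.14 ± 0.06 in HS578T did not pass, and its rise of 0.18 ± 0.07 in MDA-MB-231 (adjusted p = 0.0359) was lost without control replicate 1 or siGpx1 replicate 2 (log2 0.17 and 0.23, adjusted p 0.123 and 0.0569), and was 0.30 without control replicate 2. POLA1 and PRIM1 passed in neither line.

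Among the 4 RPA and Okazaki genes, 3 fell and 1, RPA1, rose in each line (75% and 25%). RPA1 had the largest change of the 51 genes in HS578T and the largest rise in MDA-MB-231. CCNE1, E2F2 and SLBP fell by as much or more in MDA-MB-231. RPA1, the large subunit of the RPA complex that coats single-stranded DNA, held 4216 and 4806 counts in siGpx1 HS578T, against 1635 and 1538 in control HS578T. In MDA-MB-231 it held 4569 and 4330 counts in siGpx1 libraries, against 2290 and 2368 in control libraries. All siGpx1 libraries lay above all controls, and RPA1 rose 3.08-fold in HS578T (log2 1.62 ± 0.04, adjusted p = 2.34e-13) and 2.03-fold in MDA-MB-231 (log2 1.02 ± 0.04, adjusted p = 3.60e-11). RPA2, the subunit next to it in the complex, fell by 0.24 ± 0.08 and 0.25 ± 0.07 on the log2 scale. The RPA2 calls were lost without control replicate 2 or siGpx1 replicate 1 in HS578T (log2 -0.22 and -0.11, adjusted p 0.0701 and 0.147; -0.41 without siGpx1 replicate 2) and without any library of MDA-MB-231 in that line (log2 -0.21 to -0.19, adjusted p 0.103 to 0.157). The TPM of RPA1 over that of RPA2 was 2.70 and 2.38 in siGpx1 HS578T, against 0.713 and 0.671 in control HS578T. It was 1.57 and 1.55 in siGpx1 MDA-MB-231, against 0.645 and 0.646 in control MDA-MB-231. RPA1 was below RPA2 in every control library and above it in every siGpx1 library.

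Okazaki fragments are trimmed by the flap nuclease FEN1 and sealed by the ligase LIG1. LIG1 held 361 and 390 counts in siGpx1 HS578T, against 808 and 899 in control HS578T, and 658 and 621 in siGpx1 MDA-MB-231, against 1090 and 1034 in control MDA-MB-231. It fell 2.10-fold (log2 -1.07 ± 0.08, adjusted p = 1.58e-08) and 1.56-fold (log2 -0.65 ± 0.07, adjusted p = 2.50e-06). FEN1 held 1165 and 1327 counts in siGpx1 HS578T, against 1788 and 1855 in control HS578T, and 2296 and 2270 in siGpx1 MDA-MB-231, against 2894 and 2775 in control MDA-MB-231. FEN1 fell by 0.43 ± 0.05 in HS578T and by 0.23 ± 0.05 in MDA-MB-231 on the log2 scale, the MDA-MB-231 call being lost without control replicate 1 or siGpx1 replicate 1 of that line (log2 -0.13 and -0.14, adjusted p 0.12 and 0.118).

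**Figure D3:**
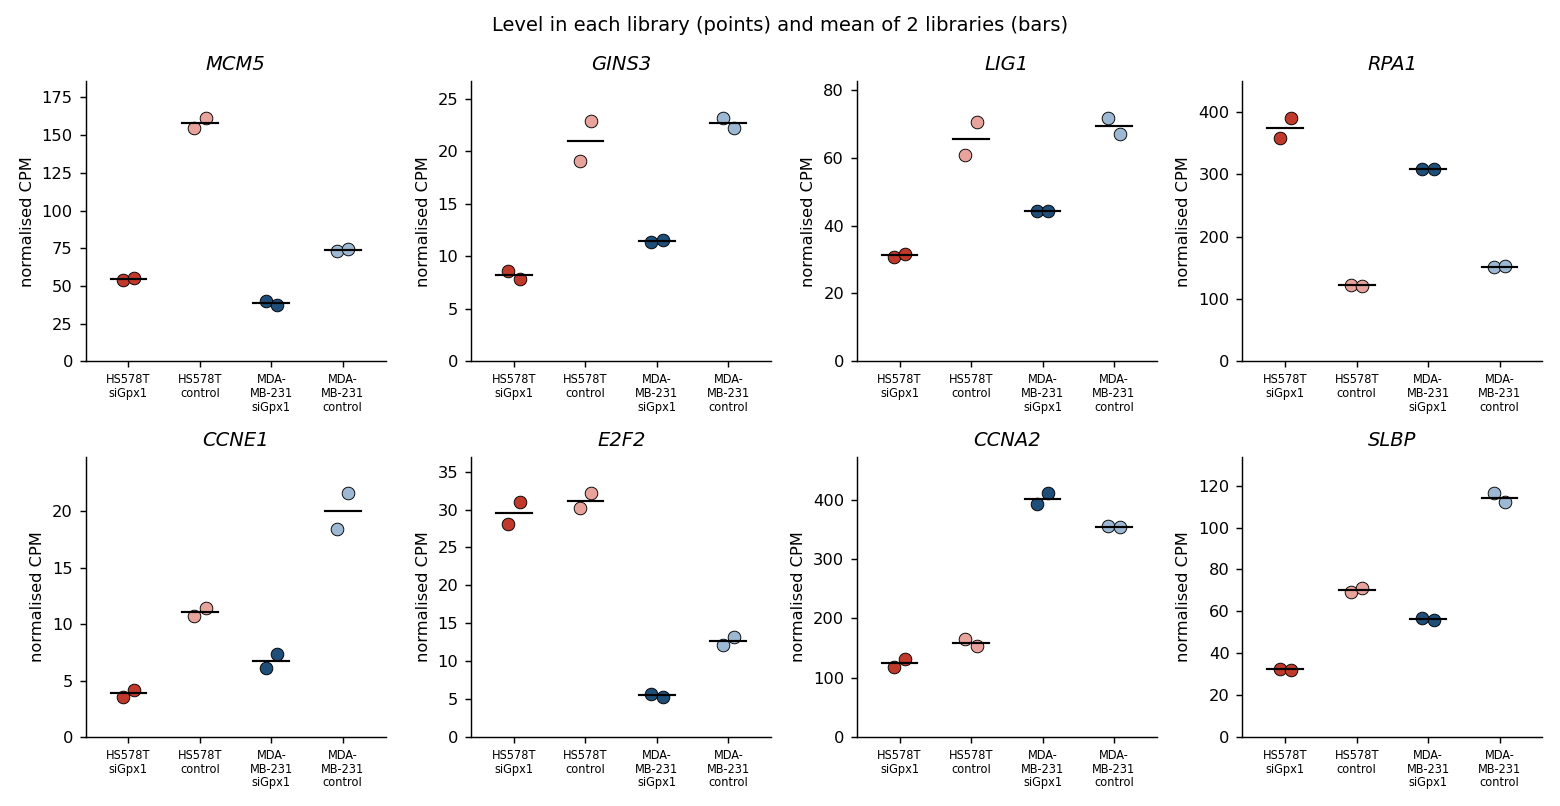
Normalised CPM of 8 genes in each library (points) with the mean of 2 libraries (bars), siGpx1 and control cells of each line. RPA1 is high in siGpx1 libraries of both lines, E2F2 is lower in siGpx1 than in control MDA-MB-231, and CCNA2 is lower in siGpx1 HS578T and higher in siGpx1 MDA-MB-231 than in the controls of the same line.

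The 4 nucleotide supply genes changed little, by at most 0.30 on the log2 scale. HS578T had 3 of these that fell and 1 that rose (75% and 25%), and MDA-MB-231 had 2 and 1 (50% and 25%). RRM2, the subunit of ribonucleotide reductase made in S phase, held 2616 and 3122 counts in siGpx1 HS578T, against 3945 and 3721 in control HS578T, and 4259 and 3950 in siGpx1 MDA-MB-231, against 4841 and 4932 in control MDA-MB-231. It fell by 0.30 ± 0.05 and 0.17 ± 0.05 on the log2 scale, with the MDA-MB-231 call lost without any library of that line (log2 -0.13 to -0.10, adjusted p 0.145 to 0.251). RRM1, the large subunit, held 2751 and 3189 counts in siGpx1 HS578T, against 3035 and 2850 in control HS578T, and 4956 and 4686 in siGpx1 MDA-MB-231, against 4489 and 4427 in control MDA-MB-231. After normalisation, the siGpx1 HS578T libraries (234 and 260 CPM) lay just above the control ones (228 and 223 CPM), and that rise of 0.13 ± 0.05 was kept without siGpx1 replicate 1 of HS578T and lost without any of the other 7 libraries (log2 0.04 to 0.14, adjusted p 0.0832 to 0.405), whereas the rise of 0.20 ± 0.04 in MDA-MB-231 (adjusted p = 0.00139) passed without each library. TK1, which salvages thymidine, held 2167 and 2464 counts in siGpx1 HS578T, against 2893 and 2821 in control HS578T, and 1709 and 1707 in siGpx1 MDA-MB-231, against 2010 and 2171 in control MDA-MB-231. TK1 fell by 0.19 ± 0.05 and 0.20 ± 0.05 on the log2 scale, in MDA-MB-231 not without control replicate 2 or siGpx1 replicate 1 (log2 -0.11 each, adjusted p 0.196 each). TYMS, the thymidylate synthase, held 1325 and 1586 counts in siGpx1 HS578T, against 1807 and 1815 in control HS578T, and 3166 and 3206 in siGpx1 MDA-MB-231, against 3492 and 3454 in control MDA-MB-231. Its fall of 0.20 ± 0.06 in HS578T was lost without control replicate 2 (log2 -0.18, adjusted p = 0.0701) or siGpx1 replicate 1 (log2 -0.12, adjusted p = 0.0801). Its log2 change was -0.31 without siGpx1 replicate 2. TYMS did not pass in MDA-MB-231.

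Among the cyclins and E2F factors, HS578T had 3 of 6 that fell (50%) and 0 that rose. MDA-MB-231 had 4 that fell and 2 that rose (66.7% and 33.3%). CCNE1, the cyclin E that activates CDK2 at the G1/S border, held 42 and 51 counts in siGpx1 HS578T, against 142 and 146 in control HS578T. It held 91 and 103 counts in siGpx1 MDA-MB-231, against 280 and 333 in control MDA-MB-231. The falls were 2.86-fold (log2 -1.51 ± 0.16, adjusted p = 1.15e-06) and 2.97-fold (log2 -1.57 ± 0.12, adjusted p = 5.40e-08). CCNE2, the second cyclin E, did not pass in HS578T (log2 0.08 ± 0.08) and rose in MDA-MB-231 (log2 0.27 ± 0.06, adjusted p = 0.00194). By TPM, CCNE2 over CCNE1 was 5.91 and 5.57 in siGpx1 HS578T, against 1.97 and 1.81 in control HS578T, and 6.85 and 5.61 in siGpx1 MDA-MB-231, against 1.93 and 1.54 in control MDA-MB-231. CCNA2, the cyclin A of S phase and G2, held 1393 and 1614 counts in siGpx1 HS578T, against 2189 and 1950 in control HS578T. It held 5826 and 5756 counts in siGpx1 MDA-MB-231, against 5399 and 5463 in control MDA-MB-231. CCNA2 fell in HS578T (log2 -0.35 ± 0.05, adjusted p = 4.58e-05) and rose in MDA-MB-231 (log2 0.18 ± 0.04, adjusted p = 0.00386).

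E2F1, an activator of the replication genes, held 331 and 398 counts in siGpx1 HS578T, against 589 and 590 in control HS578T, and 660 and 602 in siGpx1 MDA-MB-231, against 1184 and 1211 in control MDA-MB-231. It fell 1.49-fold and 1.79-fold (adjusted p = 8.60e-06 and 4.20e-08). E2F2, a second activator, held 330 and 381 counts in siGpx1 HS578T, against 401 and 410 in control HS578T, a log2 change of -0.08 ± 0.08 that did not pass. In MDA-MB-231 it held 85 and 74 counts in siGpx1 libraries, against 184 and 203 in control libraries, a 2.29-fold fall (log2 -1.20 ± 0.12, adjusted p = 8.39e-07). E2F8, a repressor of the same genes, did not pass in HS578T (log2 -0.13 ± 0.10) and fell in MDA-MB-231 (log2 -0.37 ± 0.07, adjusted p = 3.26e-04).

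In chromatin copying, HS578T had 2 of 5 genes that fell and 2 that rose (40% each). MDA-MB-231 had 1 of each (20%), near the 21.9% and 20.7% of all genes tested. SLBP, which binds the stem-loop of replication-dependent histone messages, held 380 and 396 counts in siGpx1 HS578T, against 922 and 908 in control HS578T. It held 843 and 782 counts in siGpx1 MDA-MB-231, against 1766 and 1733 in control MDA-MB-231. SLBP fell 2.18-fold (log2 -1.12 ± 0.06, adjusted p = 4.55e-10) and 2.03-fold (log2 -1.02 ± 0.05, adjusted p = 3.19e-10). HELLS, a chromatin remodeller that aids DNA methylation, held 287 and 312 counts in siGpx1 HS578T, against 237 and 249 in control HS578T, and 646 and 623 in siGpx1 MDA-MB-231, against 529 and 540 in control MDA-MB-231. It rose by 0.42 ± 0.08 and 0.33 ± 0.06 on the log2 scale (adjusted p = 3.30e-04 and 3.05e-04). CHAF1B, a subunit of the histone chaperone CAF-1, held 382 and 421 counts in siGpx1 HS578T, against 592 and 532 in control HS578T, and 608 and 599 in siGpx1 MDA-MB-231, against 620 and 552 in control MDA-MB-231. It fell in HS578T (log2 -0.37 ± 0.08, adjusted p = 8.58e-04). In MDA-MB-231 it had 41.0 and 42.8 CPM in siGpx1 libraries, against 40.8 and 35.8 CPM in control libraries, and did not pass. Its partner CHAF1A passed in neither line. UHRF1, which guides maintenance methylation to new DNA, rose by 0.26 ± 0.07 in HS578T, which did not pass without control replicate 1 or siGpx1 replicate 2 (log2 0.18 and 0.12, adjusted p 0.109 and 0.129).

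The difference between the lines was tested as the log2 change in HS578T minus that in MDA-MB-231. Of the 51 genes, 2 passed with a positive difference and 7 with a negative one, against backgrounds of 10.7% and 6.32% of all genes tested. That background turns with the scaling: it was 1528 positive and 900 negative genes with TMM factors, and 1000 positive and 1251 negative genes with DESeq2 size factors, under which 2 and 10 of the 51 passed. E2F2 differed by 1.12 ± 0.14 (adjusted p = 7.77e-05), since it fell in MDA-MB-231. RPA1 differed by 0.60 ± 0.06 (adjusted p = 8.18e-06), with the larger rise in HS578T. MCM5 (-0.61 ± 0.08, adjusted p = 6.49e-05) and LIG1 (-0.42 ± 0.11, adjusted p = 0.0124) had the larger fall in HS578T. CCNA2 (-0.53 ± 0.07, adjusted p = 8.61e-05) fell in HS578T and rose in MDA-MB-231, and CHAF1B (-0.50 ± 0.11, adjusted p = 0.00436) fell in HS578T and did not pass in MDA-MB-231. The remaining 3 were ORC1, MCM4 and POLA2, with differences of -0.42, -0.34 and -0.33. The ORC1 difference was lost without control replicate 2 or siGpx1 replicate 1 of HS578T (-0.42 and -0.37, adjusted p 0.0574 and 0.0512), and that of POLA2 without control replicate 1 of HS578T (-0.32, adjusted p = 0.0588); with DESeq2, ORC1 did not pass either (adjusted p = 0.0561). Without siGpx1 replicate 1 of HS578T, 5 of the 51 passed with a positive difference, and without siGpx1 replicate 2, 14 with a negative one, as 14 did with a stricter filter on low counts. CCNE1, SLBP, GINS4 and CDC45 did not pass, with differences between -0.10 and 0.06.

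Before depletion, the lines already differed in most of these genes. Control HS578T was below control MDA-MB-231 in 32 of the 51 and above it in 12, against 43% and 38.6% of all genes tested. The median log2 difference was -0.37 over the 51 genes and -0.05 over all genes. On the TPM scales it was -0.50 and -0.50 over the 51 genes, and -0.17 and -0.18 over all genes. E2F8 averaged 9.44 ± 0.42 TPM in control HS578T and 32.4 ± 0.81 TPM in control MDA-MB-231 (SD, n = 2 libraries each), the largest deficit (log2 -1.60 ± 0.08). POLE2 (log2 -1.21), CCNA2 (-1.16), DTL (-1.14) and MCM3 (-1.10) were also more than 2-fold lower in control HS578T. In the other direction, E2F2 averaged 14.5 ± 0.60 TPM in control HS578T and 6.45 ± 0.33 TPM in control MDA-MB-231 (log2 1.30 ± 0.09). MCM5 averaged 152 ± 4.07 TPM in control HS578T and 78.0 ± 0.44 TPM in control MDA-MB-231 (log2 1.10 ± 0.05), and GINS4 was also more than 2-fold higher in control HS578T (2.01-fold). PCNA, GINS1, GINS3, LIG1, ORC6, RFC3 and CDC45 did not pass the test.

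**Figure D4:**
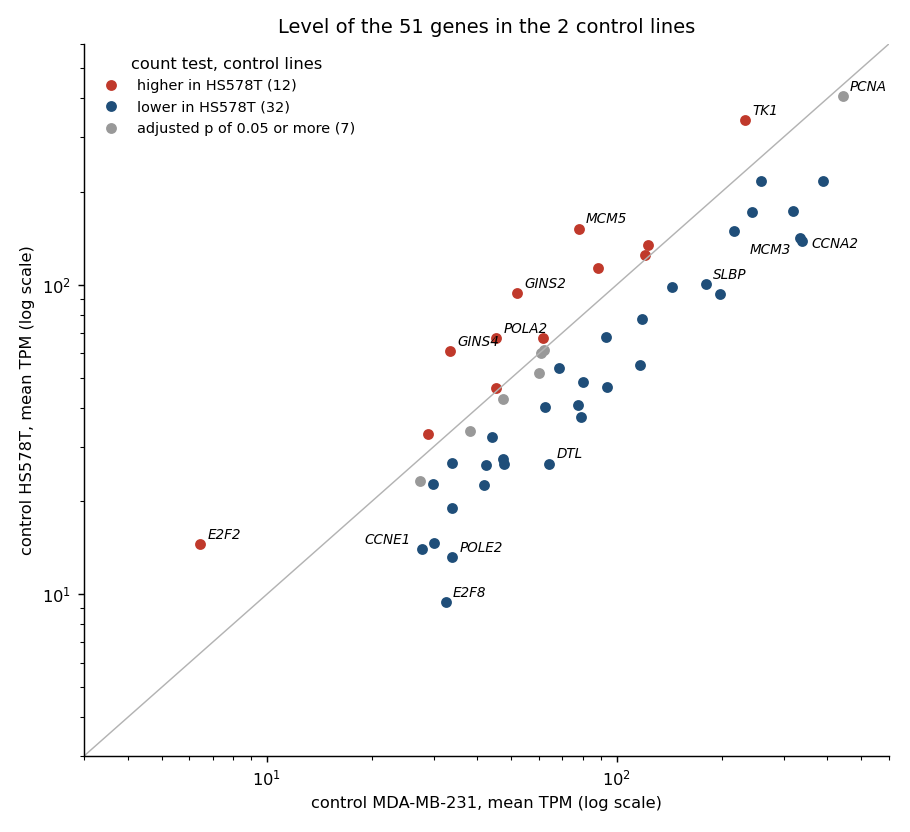
Mean TPM of each of the 51 genes in control HS578T (vertical axis, log scale) against control MDA-MB-231 (horizontal axis, log scale), with the line of equal level; colours give the count test. Most genes lie below the line, with E2F8 at 9.44 and 32.4 TPM, and E2F2, MCM5, GINS2, GINS4 and TK1 lie above it.

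Other genes of the pathway, from lists chosen with earlier results of these data known, gave the setting. Of 40 other replication genes tested, HS578T had 13 that fell and 8 that rose (32.5% and 20%, median log2 change -0.04). The shares over all genes tested were 22.1% and 28.6%. MDA-MB-231 had 10 and 8 (25% and 20%, median -0.01), near the 21.9% and 20.7% of all genes tested. DONSON, which helps to load the helicase parts, fell by 1.39 ± 0.07 and 0.98 ± 0.07 on the log2 scale. CDC25A, the phosphatase that activates CDK2, fell by 0.89 ± 0.09 and 0.95 ± 0.06, and CHTF8, a part of an alternative clamp loader, fell by 0.90 ± 0.06 and 0.65 ± 0.06. Of 19 other nucleotide supply genes, HS578T had 5 that fell and 7 that rose (26.3% and 36.8%). MDA-MB-231 had 4 of each (21.1%), again near the shares over all genes. The pyrimidine kinase CMPK1 fell by 0.93 ± 0.04 and 0.94 ± 0.04, and IMPDH2, of guanine nucleotide synthesis, by 0.54 ± 0.04 and 0.28 ± 0.04.

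Of 25 regulators of RB and E2F, HS578T had 9 that fell and 12 that rose (36% and 48%), against 22.1% and 28.6% of all genes tested. MDA-MB-231 had 6 and 8 (24% and 32%), against 21.9% and 20.7%. The regulators named here, those with the smallest p in either line, all fell, although more of the list rose. CDK2, the kinase partner of cyclins E and A, held 257 and 272 counts in siGpx1 HS578T, against 686 and 635 in control HS578T, and 533 and 480 in siGpx1 MDA-MB-231, against 1118 and 1183 in control MDA-MB-231. It fell 2.30-fold and 2.14-fold (adjusted p = 1.15e-09 and 7.76e-10), in both lines together with CCNE1. CDKN1A, an inhibitor of CDK2, also fell, by 0.80 ± 0.09 and 0.79 ± 0.06 on the log2 scale, and CDK6, a G1 kinase that acts on RB, fell by 0.83 ± 0.06 and 0.35 ± 0.05. Only 16 of 65 replication-dependent histone genes passed the filter on low counts, and of those 3 (18.8%) rose in HS578T and 2 (12.5%) in MDA-MB-231, below the 28.6% and 20.7% of all genes tested that rose, and 0 fell in either. HIST1H2BK and HIST1H2BD rose in both lines (log2 0.84 and 0.95 in HS578T, 0.60 and 0.63 in MDA-MB-231) and HIST1H2AC in HS578T (log2 1.41 ± 0.30). The summed level of all 65 was 216 and 208 TPM in siGpx1 HS578T, against 158 and 150 TPM in control HS578T. For MDA-MB-231 the sum was 777 and 818 TPM in siGpx1 libraries, against 617 and 631 TPM in control libraries. These values are uncertain, since histone genes can share reads with near-identical copies. The extent of such sharing was not tested.

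Of 37 mitotic genes, HS578T had 29 that fell and 1 that rose (78.4% and 2.7%), against 22.1% and 28.6% of all genes tested. MDA-MB-231 had 10 that fell and 15 that rose (27% and 40.5%), against 21.9% and 20.7%. Fewer fell there without any one library of that line, as also over all genes. By the test of the difference, 28 (75.7%) had a lower change in HS578T, against 6.32% of all genes tested, a background of 900 genes that other scalings and filters move as given above; over the alternatives, 24 to 30 of the 37 passed. The mitotic genes named here, those with the smallest p in either line, all fell in both lines. More of the list rose than fell in MDA-MB-231, with a median log2 change of 0.08. TOP2A, which untangles daughter DNA, fell by 1.89 ± 0.04 and 1.36 ± 0.03 on the log2 scale. CDC20, an activator of the anaphase ligase, fell by 1.12 ± 0.04 and 0.34 ± 0.04. The proliferation marker MKI67 fell by 0.92 ± 0.04 and 0.14 ± 0.04. The summed level of the 37 mitotic genes was 4165 and 4462 TPM in siGpx1 HS578T, against 5694 and 5661 in control HS578T. For MDA-MB-231 the sum was 7879 and 7885 in siGpx1 libraries, against 7782 and 7753 in control libraries. Of 7 epithelial marker genes tested, HS578T had 3 that rose and MDA-MB-231 had 6 (42.9% and 85.7%, against 28.6% and 20.7% of all genes). The summed level of all 8 listed, largely keratins with KRT5 at 0 to 0.15 TPM, was 990 and 1088 TPM in siGpx1 HS578T, against 393 and 400 in control HS578T, and 3725 and 3823 in siGpx1 MDA-MB-231, against 2472 and 2473 in control MDA-MB-231. Of 8 mesenchymal marker genes, HS578T had 6 that rose and 1, THY1, that fell, and MDA-MB-231 had 5 that rose (75% and 62.5%), or 3 without either control replicate of that line. Their summed level was 28849 and 25682 TPM in siGpx1 HS578T, against 22821 and 22594 in control HS578T, and 3089 and 3059 in siGpx1 MDA-MB-231, against 2371 and 2422 in control MDA-MB-231. The part of these lists in the changes of the replication genes was not tested.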

How the data were processed

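RNA sequencing of 8 libraries was deposited as 1 gene table per library. Its expected counts, in the deposited tables, are RSEM estimates of reads per gene, in which reads that fit several genes are shared out. TPM and FPKM, per the file headers, are the same estimates per effective length and per depth; FPKM was not used. The submitters' processing notes name FastQC, RSEM 1.2.12 and hg19, and the labels name a Qiagen RNeasy mini kit. The aligner is not given in the sources used here.

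Counts were rounded, filtered with filterByExpr by group (14249 genes kept, minimum count 10), and scaled by TMM. One model with a term for each of the 4 groups was fitted to the 8 libraries, which leaves 4 residual degrees of freedom. The edgeR quasi-likelihood test gave the p-values, adjusted by Benjamini-Hochberg over all genes, with a threshold of 0.05. A standard error is the size of the log2 change divided by the root of its F value, which understates that of large changes. TPM served for levels, with no test. Per-library values are given for GPX1, for the genes with the smallest p in either line within each function (up to 3 per line), for the genes with the largest differences between the lines and, from each other list, values for up to 3 genes. Some genes of these lists are not reported here. The members, lists, motifs and rules were chosen with earlier results of these data known. Promoters came from RefSeq (GRCh38.p14) and 3′ UTRs from GENCODE 29; only their sequences were joined to the hg19 files. On counts simulated from these libraries, the test was run before use. Alternatives were DESeq2 size factors, DESeq2, limma-voom, other filters, each line alone, a replicate block, limma on log2(TPM + 1) and on log2(TPM + 0.1), and leaving out 1 library at a time. The software comprised R 4.3.3 (edgeR 4.0.16, limma 3.58.1, DESeq2 1.42.0) and Python 3.11.15 (numpy 2.4.6, pandas 2.3.3, matplotlib 3.10.9).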

Additional observations from a re-analysis of the deposited data

Results flagged for a closer look

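Of the 51 genes, 9 changed differently in the lines by the test of the difference itself, the log2 change in HS578T minus that in MDA-MB-231 (edgeR quasi-likelihood test with Benjamini-Hochberg adjustment, 2 libraries per group). The values were 1.12 for E2F2, 0.6 for RPA1, -0.61 for MCM5, -0.53 for CCNA2, -0.5 for CHAF1B, -0.42 for LIG1, -0.42 for ORC1, -0.34 for MCM4 and -0.33 for POLA2, with adjusted p of 7.77e-05, 8.18e-06, 6.49e-05, 8.61e-05, 0.00436, 0.0124, 0.0119, 0.001001 and 0.0226 in the same order. In all 4 groups the number of libraries is too small to ask whether single libraries lie far from the others.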

How the results depend on the processing

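No called change of a named member turned its direction under the alternatives run; changes that did not pass could change sign. Of the calls over the 51 genes, 24 of 35 in HS578T, 20 of 32 in MDA-MB-231, 7 of 9 differences between the lines and 38 of 44 between the control lines passed under every alternative. With the stricter filter (5 CPM in 2 libraries) 14 of the 51 had a lower change in HS578T than in MDA-MB-231, in place of 7. Over all genes, the positive differences between the lines numbered 1000 with DESeq2 size factors, 543 with DESeq2, 797 with the stricter filter, 994 on log2(TPM + 1) and 804 on log2(TPM + 0.1), in place of 1528. The negative ones numbered 1684 with the stricter filter, in place of 900, and genes that fell in MDA-MB-231 numbered 1938 with DESeq2, in place of 3116. The cause of these moves was not tested. With each library left out in turn, in which case the lone sample is assumed to vary like the other groups, the falls in MDA-MB-231 ranged from 14 (without control or siGpx1 replicate 1 of that line) to 23 of the 51 and from 2033 to 3324 of all genes. Falls in both lines ranged from 12 (without the same libraries) to 20 of the 51, and differences between the lines from 2 to 5 positive (5 without siGpx1 replicate 1 of HS578T) and 6 to 14 negative (14 without its siGpx1 replicate 2) among the 51, and from 513 to 1573 positive and 693 to 1164 negative among all genes. The falls in HS578T also moved with single libraries, as given above. TPM moved the median difference between the control lines over all genes to -0.17 and -0.18, against -0.05. Over the 51 genes it moved to -0.50 and -0.50, against -0.37. Each line fitted alone gives no difference between lines.

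Whether replicate numbers pair the samples is not stated. The deviations of same-numbered libraries correlated at -0.21 in HS578T and -0.01 in MDA-MB-231 over 10009 genes. With 2 libraries per group, these values cannot show whether same-numbered libraries were prepared together. With the replicate number as a block, 26 fell and 9 rose in HS578T, 23 fell and 10 rose in MDA-MB-231, and 8 negative and 3 positive differences passed among the 51. A crossed pairing in HS578T, chosen after seeing the data, gave 26 falls and 10 rises there.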
